A study of Mus musculus with 3 samples.

Results

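The genes examined here carry out fatty acid oxidation in the liver or are known targets of PPARA, the nuclear receptor that switches on fat burning in fasting. They were chosen as a named list of 35 genes. Of these, 33 had a row in the deposited table, each a single row, and 32 had a value on all 3 arrays, among 10179 named genes with values on all 3. Hadhb, the beta subunit of the mitochondrial trifunctional protein, and Acot1, a cytosolic acyl-CoA thioesterase, had no named row and are not analysed here. Acot2, a mitochondrial thioesterase, had values on 2 arrays. The members fall into 7 roles, which are the receptor itself (1 gene), activation and mitochondrial uptake (4), mitochondrial oxidation (12), peroxisomal oxidation and peroxisome division (7), ketone body synthesis (1), thioesterases and a lipid droplet protein (7), and other PPARA targets (3).

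Liver RNA of female C57BL/6 mice was compared on 2-channel arrays. The Cy3 channel held TMX-/- liver after LPS/GalN, wild-type liver after LPS/GalN, or untreated TMX-/- liver, and the Cy5 channel of every array held untreated wild-type liver. Treatment was an intraperitoneal injection of 3 ng lipopolysaccharide (LPS) with 10 mg D-galactosamine (GalN), and liver was taken after 24 h. TMX is a redox-active membrane protein of the endoplasmic reticulum, and TMX-/- liver is called TMX-null below. GalN depletes hepatocytes of uridine nucleotides, which makes them sensitive to LPS, and the pair is used as a model of acute liver injury. Each group had 1 array, with no dye swap. The labels do not say whether a channel held 1 mouse or a pool, how the gene was deleted or how old the mice were.

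All values are log2 ratios to untreated wild-type liver, or differences between such ratios, after each array was centred on its median. Tmx1, the targeted gene, had log2 ratios of -3.88 on the TMX-null LPS/GalN array, 0.59 on the wild-type LPS/GalN array and -2.96 on the untreated TMX-null array. Reading the ratio as sample over untreated wild-type liver rests on Tmx1 alone, and if the ratio runs the other way, all directions given here reverse. With no replicate arrays, no difference was tested and no p-value is given. The only error at hand is the SD of a single probe, taken from 81 genes with 2 probes each. It was 0.76 log2 for TMX-null LPS/GalN, 0.42 for wild-type LPS/GalN and 0.42 for untreated TMX-null liver, and it leaves out differences between mice. Of 14 hepatocyte markers 11 were measured, and their median was -1.82 in treated TMX-null, -0.27 in treated wild-type and -0.29 in untreated TMX-null liver. At least 2-fold lower were 9, 3 and 0 of them, against 13.2%, 1.75% and 0.835% of all genes. In whole liver, fewer hepatocytes and less of an RNA per hepatocyte cannot be told apart, and the part of this in the members' values was not tested.

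Fatty acids are activated to acyl-CoA, carried into mitochondria as carnitine esters and shortened there by repeated rounds of dehydrogenation, hydration, a further dehydrogenation and thiolysis. Peroxisomes shorten very long and branched chains by a parallel set of enzymes. In the fasting liver the acetyl-CoA formed is turned into ketone bodies, and PPARA, bound to DNA with RXR at paired AGGTCA elements, raises many of these genes together. Plin2 coats lipid droplets and is a widely used marker of stored fat in hepatocytes.

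In TMX-null liver after LPS/GalN, Plin2, Ehhadh, Pdk4 and Pex11a lay at least 2-fold above untreated wild-type liver. Acaa1a, Decr2, Acsl1, Echs1, Hadh, Acot3 and Acot4 lay at least 2-fold below it, and the other members were under 2-fold in either direction. There, 4 of 32 members (12.5%) were at least 2-fold higher, against 13.6% of all genes, and 7 (21.9%) at least 2-fold lower, against 13.2% of all genes. The share of higher members is thus near the background. In wild-type liver after LPS/GalN, 0 of 32 members were 2-fold higher (2.80% of all genes) and 2, both thioesterases, were 2-fold lower (1.75% of all genes). A single member, Ppara, was at least 2-fold higher in untreated TMX-null liver (1 of 32 members, 1.78% of all genes) and 0 were 2-fold lower (0.835% of all genes). The member medians on these arrays were -0.32, -0.13 and 0.09, against 0 for all genes, to which each array was centred.

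**Figure D1:**
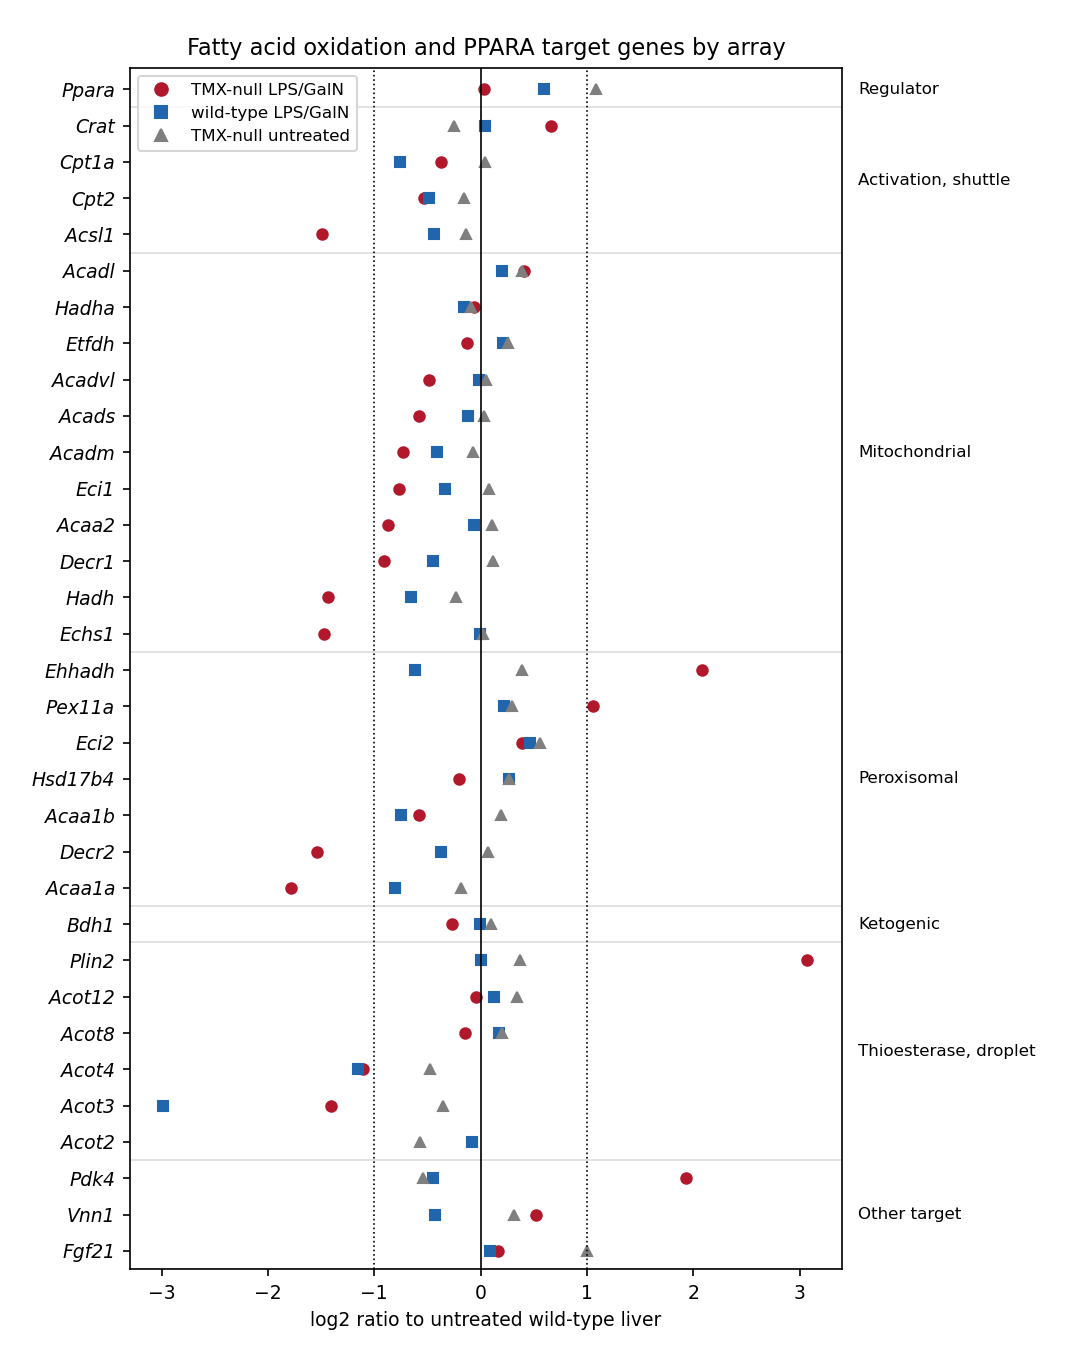
Log2 ratio to untreated wild-type liver (x axis) of the 33 members with a named row, grouped by role, on 3 arrays with 1 array per group. Circles are TMX-null LPS/GalN, squares wild-type LPS/GalN, triangles untreated TMX-null liver, and dotted lines mark 2-fold. Plin2 (3.07), Ehhadh (2.08) and Pdk4 (1.93) stand far right in treated TMX-null liver, and Acot3 (-2.99) far left in treated wild-type liver.

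Within the TMX-null genotype, treated over untreated liver gave 3 members at least 2-fold higher (11.4% of all genes) and 8 at least 2-fold lower (12.1% of all genes). The 8 were Decr2, Acaa1a, Echs1, Acsl1, Hadh, Acot3, Ppara and Decr1. In all, 24 of 32 members lay below untreated TMX-null liver (50.1% of all genes did), with a median of -0.51. Between genotypes after treatment, TMX-null over wild-type liver, 4 members were 2-fold higher (9.64% of all genes), namely Plin2, Ehhadh, Pdk4 and Acot3, and 3 were 2-fold lower (10.6% of all genes), namely Echs1, Decr2 and Acsl1. The difference of the responses, which is treated minus untreated TMX-null minus treated wild-type liver, was at least 2-fold positive for Pdk4, Plin2, Ehhadh and Acot3 (9.82% of all genes) and 2-fold negative for Ppara, Echs1 and Decr2 (11.6% of all genes). These comparisons share arrays, so they do not count as separate evidence. Altogether 13 members passed 2-fold in at least 1 of the 6 comparisons, and 19 stayed under 2-fold in all of them. Of all genes, 38.7% passed 2-fold in at least 1 of these comparisons, so the members' count is near the background. The lower calls depend on the wider spread of the treated TMX-null array: with the arrays scaled to one spread, 1 member in place of 7 was 2-fold lower than untreated wild-type liver, 3 in place of 8 than untreated TMX-null liver and 0 in place of 3 than treated wild-type liver. Under that scaling 5.50%, 7.39% and 5.31% of all genes were 2-fold lower in these comparisons, so the members' shares were not above the background in the first and the last of them.

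**Figure D2:**
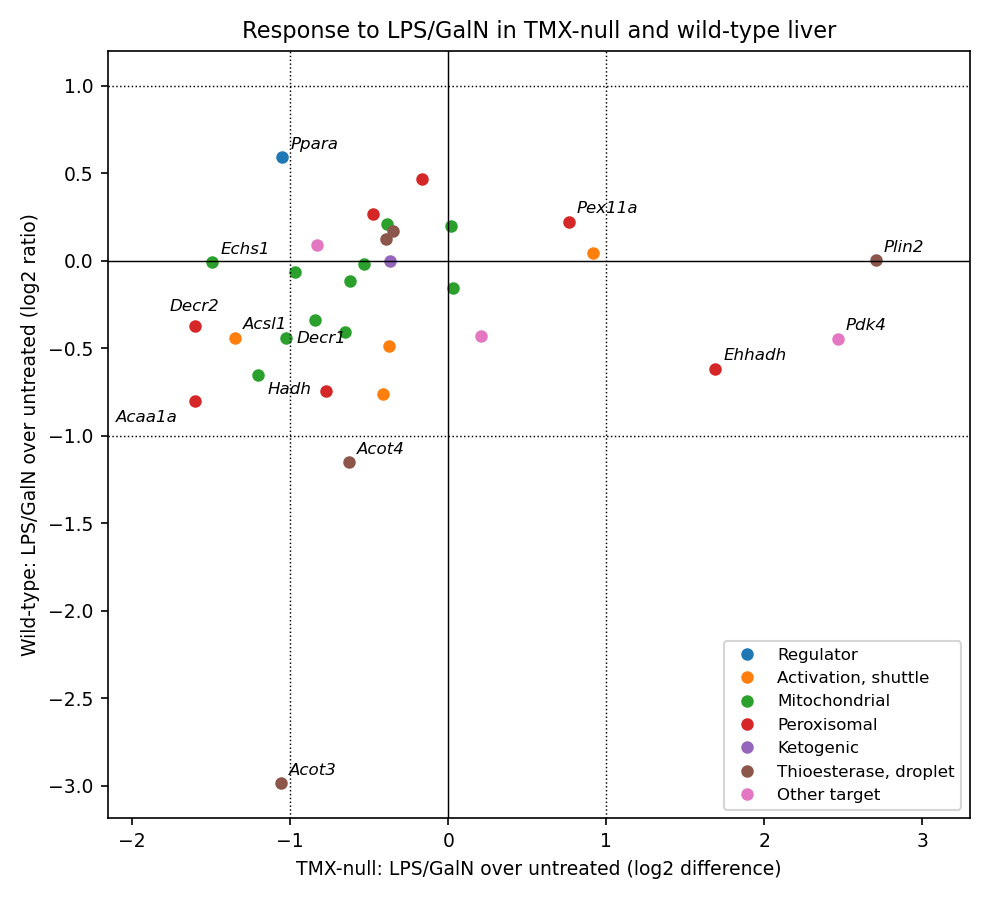
Response to LPS/GalN of 32 members in TMX-null liver (x axis, log2 difference of treated and untreated TMX-null arrays) and in wild-type liver (y axis, log2 ratio to untreated wild-type), coloured by role. Labelled genes passed 2-fold in at least 1 comparison, and dotted lines mark 2-fold. Plin2, Pdk4 and Ehhadh lie right of the 2-fold line with wild-type values of 0.0013, -0.45 and -0.62, while Acot3 and Acot4 lie below the 2-fold line for wild-type liver.

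The promoters of the 3 members highest in treated TMX-null liver and of the 2 thioesterase genes lowest in treated wild-type liver are shown because PPARA acts through elements near its targets. Each runs from 250 bases before to 50 bases after a RefSeq start, on build GRCm38.p6, written 5′ to 3′ on the gene's strand. Capitals mark the best match to 2 copies of AGGTCA in the same orientation with 1 free base between them, searched on both strands, where at most 2 of the 12 letters differ.
Plin2, chr4:86670010-86670309, - strand: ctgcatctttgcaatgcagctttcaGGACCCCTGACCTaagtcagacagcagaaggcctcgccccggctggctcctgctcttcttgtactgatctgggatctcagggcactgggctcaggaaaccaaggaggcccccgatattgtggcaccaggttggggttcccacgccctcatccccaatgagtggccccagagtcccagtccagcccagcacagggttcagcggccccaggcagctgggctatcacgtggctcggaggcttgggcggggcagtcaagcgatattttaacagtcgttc
Ehhadh, chr16:21787785-21788084, - strand: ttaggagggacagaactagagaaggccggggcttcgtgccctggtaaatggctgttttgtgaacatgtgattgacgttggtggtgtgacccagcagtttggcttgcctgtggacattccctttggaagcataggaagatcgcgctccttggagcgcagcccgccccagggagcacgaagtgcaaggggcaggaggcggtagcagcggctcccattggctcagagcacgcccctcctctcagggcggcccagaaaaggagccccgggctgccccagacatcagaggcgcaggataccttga
Pdk4, chr6:5496229-5496528, - strand: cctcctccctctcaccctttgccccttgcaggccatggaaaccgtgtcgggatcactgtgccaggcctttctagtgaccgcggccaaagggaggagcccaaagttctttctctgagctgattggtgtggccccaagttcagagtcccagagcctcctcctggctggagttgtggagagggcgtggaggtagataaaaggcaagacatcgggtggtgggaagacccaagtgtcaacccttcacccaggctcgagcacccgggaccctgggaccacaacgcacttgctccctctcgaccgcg
Acot3, chr12:84051894-84052193, + strand: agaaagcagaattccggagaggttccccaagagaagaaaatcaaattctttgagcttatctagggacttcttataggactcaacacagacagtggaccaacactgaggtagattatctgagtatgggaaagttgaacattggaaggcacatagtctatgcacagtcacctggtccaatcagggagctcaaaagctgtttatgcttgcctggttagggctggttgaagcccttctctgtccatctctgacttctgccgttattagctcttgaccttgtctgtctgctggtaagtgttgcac
Acot4, chr12:84038129-84038428, + strand: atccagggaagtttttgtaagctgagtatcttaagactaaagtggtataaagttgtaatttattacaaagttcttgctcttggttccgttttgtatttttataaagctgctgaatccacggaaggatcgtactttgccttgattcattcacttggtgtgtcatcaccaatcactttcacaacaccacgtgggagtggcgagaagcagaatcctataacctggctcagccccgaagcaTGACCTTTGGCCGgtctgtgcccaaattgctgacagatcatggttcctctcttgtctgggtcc

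A promoter was at hand for 30 of the 35 members, all but Crat, Decr1, Vnn1, Acaa2 and Hsd17b4. None of the 30 held the paired element without a mismatch. With at most 2 mismatches it was found in 4 of 30 genes (13.3%), against 4.40% of 27025 genes with a promoter of the same length. With at most 3 mismatches the shares were close, at 9 of 30 (30%) against 27.3%, so the excess rests on the limit chosen and on 4 genes. A single copy of AGGTCA was found in 8 of 30 (26.7%), against 18.1%. The 4 matches are shown on their own strand, with capitals for the letters shared with the element.
Acot12, chr13:91741411-91741423, - strand: AGGTgAgAGGTCA
Acot4, chr12:84038366-84038378, - strand: cGGcCAaAGGTCA
Plin2, chr4:86670272-86670284, + strand: AGGTCAggGGTCc
Echs1, chr7:140116492-140116504, - strand: AGGTCAcgGGTCc
The genes with a match did not behave alike in treated TMX-null liver, where Plin2 stood at 3.07, Acot12 at -0.046, Acot4 at -1.10 and Echs1 at -1.47. Ehhadh, Pdk4 and Pex11a, the other members at least 2-fold higher there, held no match in this window. A match is a likeness of letters, not a measured site, and elements outside these windows were not searched.

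Ppara, the gene of the receptor itself, had log2 ratios of 0.034 in treated TMX-null, 0.59 in treated wild-type and 1.09 in untreated TMX-null liver. It was the highest member in untreated TMX-null liver, at 2.12-fold above untreated wild-type liver and rank 122 from the highest of 10179 genes. After treatment the TMX-null value was 1.05 log2 lower than in untreated TMX-null liver (2.08-fold). The difference of responses was -1.64, with a single-probe SD of 0.65 for such differences. The sign of the wild-type value depends on the comparator, since treated wild-type liver was 0.59 against untreated wild-type liver and -0.50 against untreated TMX-null liver.

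Among the genes that bring fatty acids to the mitochondrial matrix, Acsl1, the main acyl-CoA synthetase of the liver, had values of -1.49 in treated TMX-null, -0.44 in treated wild-type and -0.14 in untreated TMX-null liver. It was 2.07-fold lower in treated TMX-null than in treated wild-type liver. Cpt1a, the carnitine palmitoyltransferase of the outer membrane and the controlled step of entry, stood at -0.37, -0.76 and 0.043 on the same arrays. It was the lowest gene of its role in treated wild-type liver, but it did not reach 2-fold in any comparison. Cpt2, its partner on the inner membrane, stood at -0.53, -0.49 and -0.16, so both treated livers were close to each other. Crat, which exchanges short acyl groups between carnitine and CoA, was on the other side, at 0.66 in treated TMX-null, 0.041 in treated wild-type and -0.25 in untreated TMX-null liver.

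The enzymes of the mitochondrial oxidation rounds were mostly on the lower side. In treated TMX-null liver 10 of the 11 measured genes lay below untreated wild-type liver, with a median of -0.73, against a median of -0.12 in treated wild-type and 0.052 in untreated TMX-null liver. Echs1, the short-chain enoyl-CoA hydratase, stood at -1.47, -0.0088 and 0.022 on these arrays, so only treated TMX-null liver was low, at 2.78-fold. It was also 2.76-fold lower than in treated wild-type liver and had the largest difference between the treated genotypes among the 11 measured mitochondrial members. Hadh, the hydroxyacyl-CoA dehydrogenase for short chains, was low in both treated livers, at -1.44 in TMX-null and -0.65 in wild-type liver, and stood at -0.23 in untreated TMX-null liver.

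Decr1, which is needed for chains with double bonds at even positions, stood at -0.91 in treated TMX-null and 0.11 in untreated TMX-null liver, a 2.04-fold difference, and at -0.44 in treated wild-type liver. Acaa2, the mitochondrial thiolase, stood at -0.87 in treated TMX-null, -0.064 in treated wild-type and 0.10 in untreated TMX-null liver. Eci1, an isomerase of unsaturated chains, followed at -0.77, -0.34 and 0.075. Neither of these reached 2-fold.

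The acyl-CoA dehydrogenases start each round on chains of different length. In treated TMX-null liver the medium-chain enzyme gene Acadm stood at -0.73, the short-chain Acads at -0.58 and the very-long-chain Acadvl at -0.48, while the long-chain Acadl stood at 0.41. In treated wild-type liver these genes stood at -0.41, -0.12, -0.018 and 0.20, and in untreated TMX-null liver at -0.074, 0.036, 0.052 and 0.39. Acadl had the highest value of the role in treated and in untreated TMX-null liver, but none of the dehydrogenase genes reached 2-fold, and in treated TMX-null liver each lay within the single-probe SD of 0.76. Hadha, the alpha subunit of the trifunctional protein, stood between -0.15 and -0.058 on all arrays, the narrowest range of the role. Etfdh, which passes electrons from the dehydrogenases to ubiquinone, stood at -0.13, 0.21 and 0.26 in treated TMX-null, treated wild-type and untreated TMX-null liver.

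In treated TMX-null liver 2 of 7 peroxisomal genes were at least 2-fold higher (13.6% of all genes) and 2 at least 2-fold lower (13.2% of all genes). Ehhadh, the bifunctional enzyme that is one of the most PPARA-responsive genes of rodent liver, stood at 2.08 in treated TMX-null, -0.62 in treated wild-type and 0.39 in untreated TMX-null liver. It was 3.23-fold higher in treated than in untreated TMX-null liver and 6.49-fold higher than in treated wild-type liver, rank 48 from the highest of 10179 genes. Hsd17b4, the other bifunctional enzyme, which serves branched chains and bile acid precursors, stood at -0.21, 0.26 and 0.27. Both enzymes carry the same middle steps, yet only Ehhadh was far from 0.

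Acaa1a and Acaa1b, close copies that encode the peroxisomal thiolases, stood at -1.79 and -0.58 in treated TMX-null liver, at -0.80 and -0.75 in treated wild-type liver and at -0.19 and 0.19 in untreated TMX-null liver. Acaa1a was the lowest member in treated TMX-null liver, 3.45-fold below untreated wild-type liver. Whether their probes separate the copies is unknown. Decr2, the peroxisomal dienoyl-CoA reductase, stood at -1.54, -0.37 and 0.068, and was 2.24-fold lower in treated TMX-null than in treated wild-type liver. Pex11a, a membrane protein that divides peroxisomes and is induced by PPARA agonists, stood at 1.05 in treated TMX-null, 0.22 in treated wild-type and 0.29 in untreated TMX-null liver. Its excess over 2-fold was small beside the single-probe SD of 0.76. Eci2, an isomerase, stood between 0.39 and 0.56 on all arrays.

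The ketone body step among the members, Bdh1, which reduces acetoacetate to hydroxybutyrate, stood at -0.27 in treated TMX-null, -0.0037 in treated wild-type and 0.10 in untreated TMX-null liver, all within the SD of a single probe. Among other genes of ketone bodies, Oxct1, which tissues other than liver use to burn ketones, stood at 1.79, 0.63 and -0.042. Slc16a6, a transporter that exports ketone bodies from fish liver, stood at 2.01, 0.32 and 0.73. Of the 5 measured genes of that list, 3 were at least 2-fold higher in treated TMX-null liver (13.6% of all genes) and 1 lower (13.2% of all genes).

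Plin2 was the highest member in treated TMX-null liver, at 3.07, against 0.0013 in treated wild-type and 0.37 in untreated TMX-null liver. It was 8.39-fold above untreated wild-type liver and ranked 54 from the highest of all genes. Treated TMX-null liver was 6.52-fold above untreated TMX-null and 8.39-fold above treated wild-type liver. Plin2 was thus high in treated TMX-null liver alone, unlike the thioesterases grouped with it.

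The thioesterases split acyl-CoA into free fatty acid and CoA, and those among the members lay below or near 0 in treated livers. Acot3, a peroxisomal enzyme of the mouse, stood at -1.41 in treated TMX-null, -2.99 in treated wild-type and -0.35 in untreated TMX-null liver. It was 7.92-fold below untreated wild-type liver in treated wild-type liver, rank 4 from the lowest of all genes. It was lower in treated wild-type than in treated TMX-null liver, being 2.98-fold higher in treated TMX-null than in treated wild-type liver. Acot4, a peroxisomal thioesterase, stood at -1.10 in treated TMX-null and -1.15 in treated wild-type liver, with -0.47 in untreated TMX-null liver.

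Acot2 had no value for treated TMX-null liver and stood at -0.078 in treated wild-type and -0.57 in untreated TMX-null liver. Acot1 to Acot4 are close copies side by side on mouse chromosome 12, so probes may not separate them. Acot8, a broad peroxisomal thioesterase, stood at -0.15, 0.17 and 0.20 in treated TMX-null, treated wild-type and untreated TMX-null liver. Acot12, which acts on acetyl-CoA, stood at -0.046, 0.12 and 0.35.

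Pdk4, the kinase that shuts off pyruvate dehydrogenase and so spares glucose when fat is burnt, stood at 1.93 in treated TMX-null, -0.45 in treated wild-type and -0.54 in untreated TMX-null liver. Treated TMX-null liver was 5.52-fold above untreated TMX-null and 5.18-fold above treated wild-type liver. Its difference of responses, 2.91, was the highest of the members. Vnn1, a pantetheinase of the cell surface, stood at 0.52, -0.43 and 0.32. Fgf21, the fasting hormone of the liver, stood at 0.16 and 0.087 in treated TMX-null and treated wild-type liver and at 0.997 in untreated TMX-null liver, just under 2-fold and beside Ppara as the highest members there.

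When treated wild-type liver was set against untreated TMX-null liver, in which dyes and the shared channel cancel but genotype differs, 30 of 32 members lay lower (49.6% of all genes did), with a median of -0.32. All 11 mitochondrial, all 7 peroxisomal and all 5 measured thioesterase or droplet members were on the lower side, and Crat (0.29) and Pdk4 (0.091) were the exceptions. The medians of these 3 roles were -0.17, -0.44 and -0.36, beside a single-probe SD of 0.38 for this comparison. Values such as -0.031 for Echs1 and -0.0031 for Hsd17b4 were close to 0. Of the 88 measured genes of the other lists described below, 56 (63.6%) lay lower as well. Only Acot3 (-2.64) and Ehhadh (-1.01) reached 2-fold, where 1.98% of all genes were 2-fold lower. Against untreated wild-type liver 21 of 32 were lower, and 22 of 32 members stood above 0 in untreated TMX-null liver, which enters this comparison with a minus sign.

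**Figure D3:**
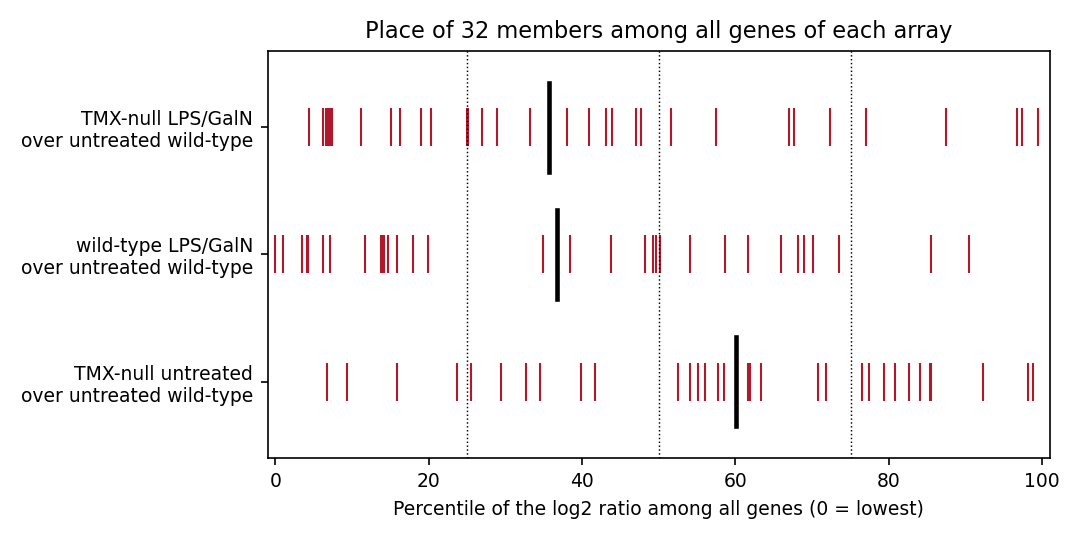
Percentile (x axis, 0 the lowest) of the log2 ratio of each of 32 members among 10179 genes on each array, 1 red tick per member. Black bars mark the median member, at percentile 35.6 in treated TMX-null, 36.7 in treated wild-type and 60.1 in untreated TMX-null liver.

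Other genes of the same or adjoining pathways were counted on 5 further lists of 114 genes in all, 88 of them measured on all arrays. Of these, 10 were at least 2-fold higher and 34 at least 2-fold lower in treated TMX-null liver, against 2 and 6 in treated wild-type and 2 and 0 in untreated TMX-null liver. In treated TMX-null liver the higher share, 11.4%, was near the 13.6% of all genes, and the lower share, 38.6%, stood beside 13.2% of all genes. In treated wild-type liver 2.27% were higher and 6.82% lower, against 2.80% and 1.75% of all genes, so the lower share was above the background there too. In untreated TMX-null liver the shares were 2.27% and 0%, against 1.78% and 0.835% of all genes. The lower genes were most frequent in 2 of the lists, the peroxisomal one, where 13 of 24 were 2-fold lower in treated TMX-null liver and 0 higher (median -1.14), and the mitochondrial one, where 11 of 19 were lower and 1 higher (median -1.11). On that array the medians of the members in these roles were -0.21 and -0.73. The mitochondrial list also holds genes of branched-chain amino acid and propionate breakdown. Of these, Ivd, Acad8, Hsd17b10, Acadsb, Pcca and Pccb stood at -2.42, -1.77, -1.71, -1.42, -1.31 and -1.04 in treated TMX-null liver. Outside that group, Etfa and Etfb stood at -1.11 and -1.52 there, and the carnitine transport genes Slc25a20 and Slc22a5 at -0.35 and -0.015. The list of PPARA targets and partners had 4 of 26 genes higher and 6 lower, with a median of -0.15. The hepatocyte markers had a lower median than any of these lists, -1.82, and their part in the counts was not tested.

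The 3 lowest of the 88 in treated TMX-null liver were peroxisomal. Nudt7, which splits CoA in peroxisomes, stood at -3.81 in treated TMX-null, -0.72 in treated wild-type and -0.28 in untreated TMX-null liver. Hao2, a hydroxyacid oxidase, stood at -3.29, -1.42 and -0.49, and Hacl1, which shortens branched chains, at -2.79, -0.38 and -0.42. The 3 highest were Hilpda, Acot9 and Slc16a6. Hilpda, a droplet protein that inhibits the lipase Pnpla2, stood at 3.27, -0.042 and 0.17, like Plin2 high on the treated TMX-null array alone. Acot9, a mitochondrial thioesterase, stood at 2.22, 0.43 and 0.31. Cd36, a fatty acid uptake protein and PPARA target, was 2.11 log2 higher in treated TMX-null than in treated wild-type liver.

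Of 14 measured genes of the droplet list, 2 were at least 2-fold higher in treated TMX-null liver (13.6% of all genes) and 3 lower (13.2% of all genes). Among the lower were Cideb at -2.57 and Fitm1 at -1.92. Fitm1, which partitions lipid into droplets, had a log2 difference of -2.49 between treated TMX-null and treated wild-type liver. G0s2, another inhibitor of Pnpla2, stood at 0.16 in treated TMX-null, -1.26 in treated wild-type and -0.13 in untreated TMX-null liver. Acsm1, a medium-chain acyl-CoA synthetase of mitochondria, stood at -2.56, -0.13 and -0.13. Cyp4a14, a microsomal fatty acid hydroxylase and strong PPARA target of mouse liver, stood at 0.78, 0.39 and 0.35, under 2-fold on each array. Cyp4a10, a related hydroxylase, had no named row and is not analysed here.

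Of the genes that work with PPARA, Fabp1, the fatty acid binding protein of the liver, stood at -1.52 in treated TMX-null, -1.18 in treated wild-type and -0.83 in untreated TMX-null liver, the lowest of the 88 in untreated TMX-null liver. Lpin1, a phosphatidate phosphatase that also coactivates PPARA, stood at -0.78, 1.30 and 0.88, so treated TMX-null liver alone was below 0. Pank1, which makes CoA, followed a like course at -1.74, 0.39 and 1.05, and its difference of responses, -3.18, was the lowest of the 88. Cpt1b, the muscle form of the entry enzyme, stood at 1.63, 0.47 and 1.14. Acsl4, a synthetase for arachidonate, stood at 1.47 and 1.25 in treated TMX-null and treated wild-type liver and at -0.087 in untreated TMX-null liver. Ncor1, a corepressor of nuclear receptors, stood between 0.78 and 0.96 on all arrays, and Pex13, a peroxisomal import protein, at -1.20, -0.16 and -0.77.

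**Figure D4:**
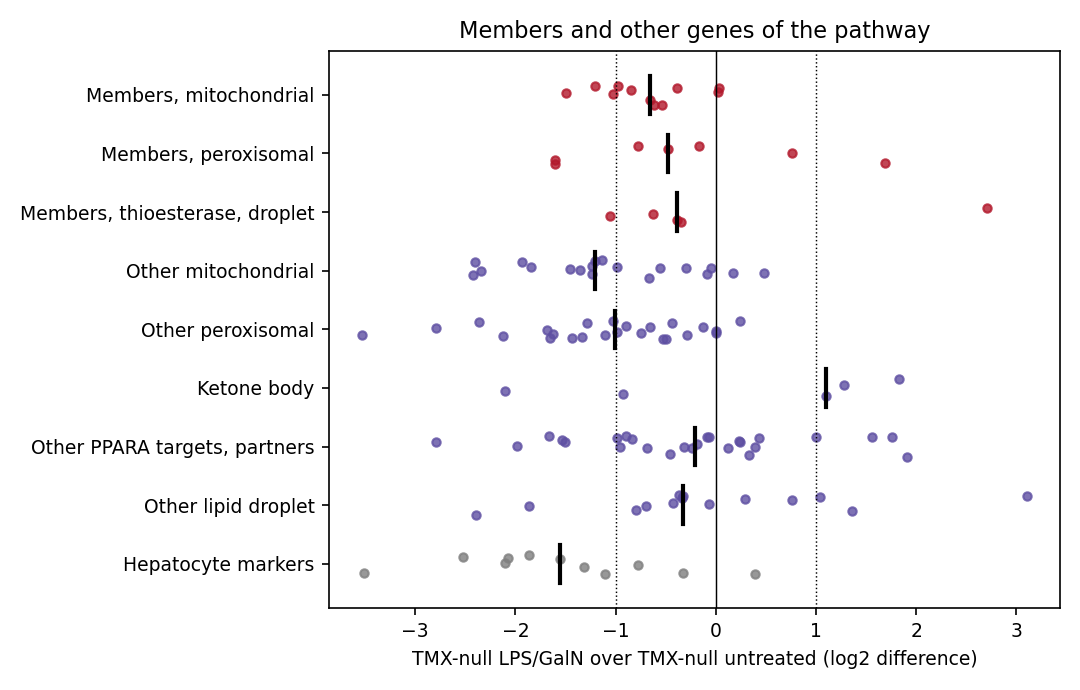
Log2 difference between treated and untreated TMX-null liver (x axis) for members by role (red), other genes of the pathway (purple) and hepatocyte markers (grey), 1 point per gene with values on all arrays, black bars at list medians, dotted lines at 2-fold. Medians ran from -1.55 for 11 hepatocyte markers and -1.21 for 19 other mitochondrial genes to 1.11 for 5 ketone body genes. Of those 5, 3 lay above 0 and 2, Bdh2 (-2.10) and Acat1 (-0.92), below it.

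Markers of other cells differed between the arrays as well. Of 13 measured macrophage markers 10, 9 and 4 were at least 2-fold higher in treated TMX-null, treated wild-type and untreated TMX-null liver. Their medians were 1.45, 1.16 and 0.79, and 13.6%, 2.80% and 1.78% of all genes were 2-fold higher there. All arrays share the untreated wild-type channel and its dye, and the part of these in values alike on every array was not tested. Of 5 measured neutrophil and monocyte markers 3, 1 and 0 were higher, with medians of 2.66, -0.30 and -0.18. In treated TMX-null liver 1 of the 5 was at least 2-fold lower, Ly6g, a neutrophil surface marker, at -2.50, and it is named after its value was seen. Of 6 adipocyte markers 2 were measured, and Fabp4, which macrophages also express, stood at 2.57, 0.65 and 0.19 while Plin1, the droplet protein of adipocytes, stood at -0.20, -0.43 and 0.17. In treated TMX-null liver the marker medians were 1.18 for stellate cells, 0.79 for T and NK cells, 0.41 for B cells, 0.35 for bile duct cells and 0.33 for endothelium. The part of these cells in the values of Plin2, Pdk4 or Cd36 was not tested. The table holds ratios and no signals, so it does not show which markers were at background.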

How the data were processed

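The authors deposited 1 table of log ratios between the channels of each array, 1 column per array, read here as log2 values. How the authors normalized them, the base, the numerator and the reason for blank cells were not given in the sources used here. Column medians of -6.94e-05 to 1.14e-04 show that the deposited values had been centred. Per the labels' protocols, RNA was amplified as amino allyl aRNA and coupled to Cy3 and Cy5.

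Of 23473 rows, 16631 had a gene symbol in GEO's platform annotation. Symbols were updated through the synonyms of a RefSeq gene table (3947 rows, 4 members). Probes of a gene were averaged, and each array was centred on its median over genes with values on all 3 arrays. A gene was called at 2-fold. The members' list was given with earlier results of these data known, and so were the roles, the lists of other pathway genes and the markers. Members were all described. Of the other lists, the 3 highest and 3 lowest genes of a comparison were named, plus Cyp4a10 and Cyp4a14, and the adipocyte markers were named after their values were seen. The genes of amino acid and propionate breakdown, Etfa, Etfb, Slc25a20, Slc22a5, Bdh2 and Acat1 were also named after their values were seen. The calling step was tested on simulated data. With 1 array per group there is no test across samples, and precision is limited by the number of arrays. Promoters came from RefSeq tables of build GRCm38.p6. The alternatives tried were no centring, equal spread of the arrays, all genes with the values needed, another choice of probe, a natural logarithm, a 1.5-fold call, unmodified symbols and untreated TMX-null liver as the comparator. Python 3.11.15, numpy 2.4.6, pandas 2.3.3 and matplotlib 3.10.9 were used.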

Additional observations from a re-analysis of the deposited data

Results flagged for a closer look

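For 3 members the response to LPS/GalN had opposite signs in TMX-null and wild-type liver, with at least 1 of the responses past 2-fold. The response of Pdk4 was 2.46 in TMX-null and -0.45 in wild-type liver, a difference of 2.91 log2. Ehhadh had responses of 1.69 and -0.62, a difference of 2.31, and Ppara of -1.05 and 0.59, a difference of -1.64. With 1 array per group these differences were not tested. Set against untreated TMX-null liver, treated wild-type liver stood at 0.091 for Pdk4, -1.01 for Ehhadh and -0.50 for Ppara, so for Pdk4 and Ppara the signs are then no longer opposite.

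Outside the genes measured on all arrays, 3 listed genes of the pathway had a value at least 2-fold above untreated wild-type liver on a single array. Acot5, a peroxisomal thioesterase beside Acot3 and Acot4, stood at 2.71 in treated TMX-null liver, while Acot3 and Acot4 were below 0 there. Cidea, a lipid droplet protein, stood at 1.003 in treated TMX-null liver, and Pnpla3, a lipid hydrolase, at 1.60 in treated wild-type liver. The values of these genes on the other arrays were blank.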

How the results depend on the processing

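No paired analysis was possible because each group has 1 array. Every one of the 39 member values past 2-fold kept its sign under each alternative that gave it a value (269 of 269). Most of these alternatives could not have changed a sign, so this count does not measure robustness. The natural logarithm only rescales the values, and the 1.5-fold call leaves them as they are. Each measured member has a single row, so another choice of probe changes none of them. Of the recomputed counts of members past the threshold, 66 stayed within 1.5 times the reported count and 20 did not. Dividing the arrays to one spread gave 1 member 2-fold lower in treated TMX-null liver in place of 7, 3 in place of 8 against untreated TMX-null liver, and 0 in place of 3 against treated wild-type liver. It gave 4 in place of 2 in treated wild-type liver and 2 in place of 1 higher in untreated TMX-null liver (4.19% and 5.90% of all genes). Fewer calls on the widest array follow from the scaling itself. Read as natural logarithms, the lower counts were 11 in treated TMX-null and 5 in treated wild-type liver against untreated wild-type liver, 6 for TMX-null against wild-type among treated livers and 8 for the difference of responses, and the higher counts were 5 for treated against untreated TMX-null liver and 2 in untreated TMX-null liver. At 1.5-fold the lower counts were 11 in treated TMX-null liver, 7 in treated wild-type liver, 15 for treated against untreated TMX-null liver, 6 for TMX-null against wild-type among treated livers and 10 for the difference of responses. The higher counts at 1.5-fold were 1 in treated wild-type liver, 2 in untreated TMX-null liver, 5 for treated against untreated TMX-null liver and 7 for TMX-null against wild-type among treated livers. A lower threshold makes more calls by construction. For these lower counts, in the same order, the shares of all genes were 21.3%, 5.24%, 17.9% and 19.1% as natural logarithms, and 25.02%, 8.17%, 23.6%, 21.1% and 22.6% at 1.5-fold. For the higher counts they were 19.4% and 4.75% as natural logarithms, and 9.78%, 6.98%, 23.2% and 21.1% at 1.5-fold. The table has no signal or background values, so the ratios of dim probes could not be set apart.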
